A study of Arabidopsis thaliana and Solanum lycopersicum with 40 samples.

Results

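Tomato cytochrome P450 genes were followed in roots of seedlings that were shaded or left unshaded. The genes were those whose description in the deposited tomato table contains "cytochrome P450" and whose mean level over all 16 tomato libraries was at least 1 FPKM, that is, fragments scaled by transcript length and by mapped fragments. Of 215 genes so described, 119 reached that mean, and they were 119 of the 20413 tomato genes tested and of 67632 identifiers in the tomato and Arabidopsis tables. The rule uses the description and the mean level and no shade effect. Whole roots of Solanum lycopersicum cultivar M82 were taken after 7 days of growth in white light, followed by 3, 6, 12 or 24 h in shade or unshaded. Each of the 8 groups of light and time held 2 libraries. The labels name no mutant, transgene or chemical in these groups and do not say how many seedlings made up a library or whether the libraries came from separate cultures, so p-values measure the spread between these libraries, which may be technical. The light quality or intensity of the shade is not given in the labels.

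Cytochrome P450 enzymes are haem proteins, mostly anchored in the endoplasmic reticulum, that insert oxygen into small molecules. They take electrons from NADPH through a partner enzyme, NADPH-cytochrome P450 reductase, and some also use cytochrome b5. Plants carry them as a large gene family whose members make or break down brassinosteroids, gibberellins, oxylipins, lignin precursors, sterols, suberin and many defence compounds. For 107 of the 119 genes the table names no family or substrate, only the closest database protein, and these genes are therefore given by identifier. The other 12 comprised 4 genes described as CYP71 (71A6), 2 as CYP74, 1 each as CYP72, CYP724 and CYP86, and 3 NADPH-cytochrome P450 reductases, which are not P450 enzymes but carry the words in their name.

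The FPKM sums of the 16 libraries lay between 907138 and 1021245. No read counts were given, so absolute depth is unknown; depth relative to the mean, read from steps in the low values, ranged from 0.669 to 1.48 and was 0.669 and 0.885 in shaded against 1.14 and 0.975 in unshaded libraries at 3 h. Pearson's r between the 2 libraries of a group, across genes, was 0.957 to 0.982. Among markers of the labelled tissue, 6 of 7 Casparian strip membrane proteins and 1 of 7 high-affinity nitrate transporters averaged at least 1 FPKM. The 14 root markers summed to 450.3 and 496 FPKM in shaded against 416 and 422 FPKM in unshaded libraries at 3 h, and to 507 and 514 against 329.8 and 466 FPKM at 6 h. They summed to 429.6 and 464 against 372 and 499.9 FPKM at 12 h, and to 406 and 693 against 300.3 and 323 FPKM at 24 h, so the shaded sums were the higher ones at all times but 12 h, where they overlapped. Of the 7 tested root markers, 2 were called higher at 24 h, 4 were called higher in the average over the 4 times and none was called lower. The kinds of root marker differed in their median sums over all times. For the Casparian strip proteins these were 337 FPKM in shaded against 211 FPKM in unshaded libraries. For the nitrate transporters they were 153 FPKM in shaded against 176 FPKM in unshaded libraries. Markers of green shoot cells were present too: 35 of 37 chlorophyll a-b binding proteins averaged at least 1 FPKM, while 0 of 3 Rubisco small chain genes did. The 40 green shoot markers summed to 1586 to 2186 FPKM in shaded against 1401 to 1885 FPKM in unshaded libraries at 3 h. At 6 h the sums were 1137 to 1790 against 1568 to 2397 FPKM. The sums overlapped at 3 and at 6 h, and no green marker was called then. They were 693 to 911 FPKM in shaded against 1223 to 2179 FPKM in unshaded libraries at 12 h, and 604 to 705 against 1015 to 1233 FPKM at 24 h. At both times none of the 35 tested green markers was called higher in shade, 17 were called lower at 12 h and 15 at 24 h. In the average 22 green markers were called lower and none higher. The part of these markers in the P450 values was not tested. In whole roots, fewer cells of a type and less RNA per cell cannot be told apart.

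P450 genes were called in both directions, and most of the calls were made at 12 and 24 h. At 3 h none of the 119 genes passed the test, limma with Benjamini-Hochberg adjustment over all 20413 genes at 0.05, although 33 had an unadjusted p under 0.05; of all tested genes, 0.186% were called and 9.78% had such an unadjusted p. At 6 h 2 genes passed it, 1 of them higher in shade, against 1.64% of all genes (1.14% higher and 0.495% lower). At 12 h 38 genes were called, 18 higher and 20 lower, which was 31.9% of the P450 genes against 23.9% of all genes (10.6% higher and 13.3% lower). At 24 h 54 were called, 29 higher and 25 lower, which was 45.4% against 37.3% of all genes (15.9% higher and 21.4% lower). Called genes that also differed at least 2-fold numbered 21 at 12 h and 27 at 24 h, against 6.52% and 11.7% of all genes; 11 and 14 of them were higher in shade.

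**Figure D1:**
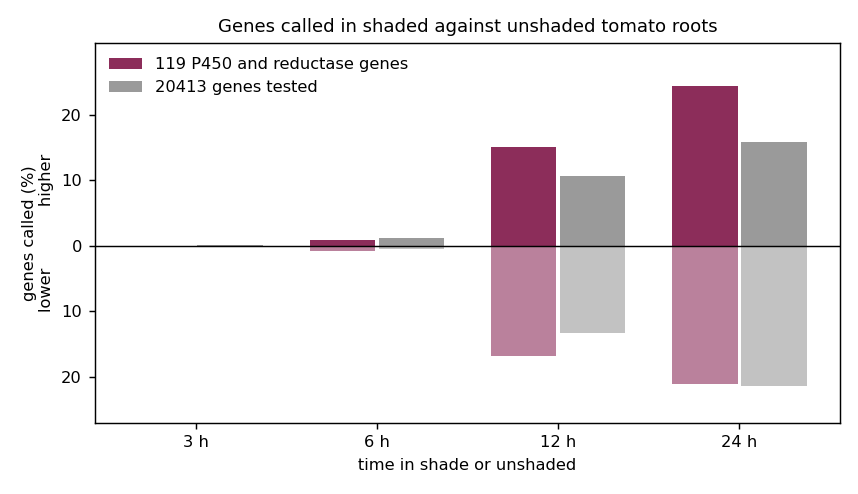
Percentage of genes called (limma, adjusted p under 0.05) in shaded against unshaded tomato roots at each time, higher upward and lower downward, for the 119 P450 and reductase genes and all 20413 tested genes. At 24 h 24.4% of the P450 genes were higher and 21.0% lower, beside 15.9% and 21.4% of all genes.

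The median shade effect over the 119 genes stayed near 0 throughout. In order of time it was -0.12, -0.08, -0.04 and -0.01 on the log2 scale, beside 0.03, -0.00, -0.02 and -0.03 over all tested genes. The median size of the effect, without its sign, was 0.30, 0.32, 0.41 and 0.57, beside 0.15, 0.17, 0.31 and 0.38 over all tested genes. The shaded and unshaded libraries did not overlap in 74, 61, 80 and 86 genes in the same order, beside 43.5%, 45.4%, 60.8% and 72.7% of all genes. Fold changes here are differences of log2(FPKM + 1), which understates changes of weakly expressed genes.

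**Figure D2:**
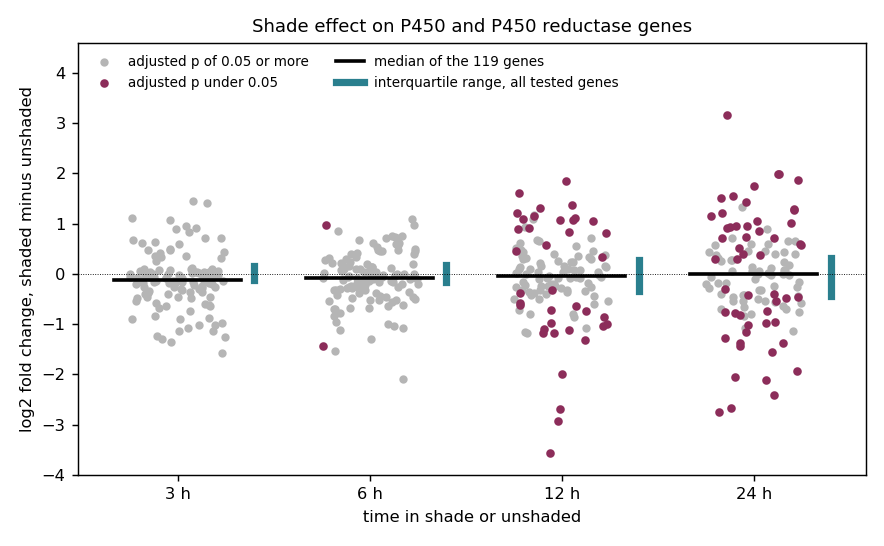
Difference of log2(FPKM + 1), shaded minus unshaded, for each of the 119 genes at each time; dark points passed the test, black lines are medians of the 119 genes and the vertical bars span the interquartile range of all tested genes. Called genes lie on both sides of 0 at 12 and 24 h, and the values run from -3.57 at 12 h to 3.16 at 24 h.

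Of all 20413 tested genes, 4876 were called at 12 h, and 1609 were called higher and 2184 lower at both 12 and 24 h (7.88% and 10.7%). Of the 38 P450 genes called at 12 h, 15 were called higher and 14 lower at both times. A further 9 were called at 12 h and not at 24 h, and 25 at 24 h and not at 12 h (5.2% and 18.6% of all genes), which does not show that their effects differed between these times. None of the 119 genes was called in opposite directions at different times, beside 0.137% of all genes. No time point called 56 of the genes, and 46 of those were not called in the average over the 4 times either, beside 57.4% and 50.8% of all genes. Over the 4 times together, 26 genes rose and 32 fell in shade, 58 in all, against 39.2% of all genes (18.2% higher and 20.9% lower). At least 2-fold in that average were 9 of them, 3 higher and 6 lower, against 2.43% of all genes. Of the 119 genes, 14 were called higher in the average and were higher in shade at all 4 times, called or not at the single times. Likewise 27 of the 119 were called lower in the average and were lower at all 4 times. The shares of all tested genes were 12.6% and 10.2%. Leaving out single libraries moved the P450 counts at single times more than that of the average, as it did over all tested genes. The 12 h count was 13 without shaded replicate 2, 18 without shaded replicate 1 and 24 without unshaded replicate 1 of that time; the 24 h count was 32 without shaded replicate 1, 33 without unshaded replicate 1 and 30 without unshaded replicate 2. The average count stayed between 49 and 58.

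Transcript levels spanned a wide range. Mean levels ran from 1.00 to 179.7 FPKM with a median of 8.65; 7 genes averaged 100 FPKM or more and 42 averaged under 5 FPKM. Summed over the 116 genes other than the reductases, P450 transcripts made up 2094 and 2282 FPKM in shaded against 2601 and 2417 FPKM in unshaded libraries at 3 h. The sums were 2123 and 2199 against 2478 and 2417 FPKM at 6 h, and 2027 and 2033 against 2205 and 2171 FPKM at 12 h. At these 3 times both shaded sums lay below both unshaded ones. At 24 h the sums were 2512 and 2217 FPKM in shaded against 2674 and 2345 FPKM in unshaded libraries, and these overlapped. Such sums are weighted toward the most abundant genes, so they do not describe the typical gene. Solyc06g035760.4 is among the most abundant and was lower in shade at every time, as given below. What each gene added to the differences was not tested. The gene with the highest mean, Solyc07g006890.1, had 204 and 177 FPKM in shaded against 211 and 167 FPKM in unshaded roots at 24 h. Its shaded and unshaded libraries overlapped there, and it passed the test neither at any time nor in the average (log2 difference 0.07 ± 0.12 SE, limma adjusted p = 0.695), a difference that turned negative without unshaded 12 h replicate 1.

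Other abundant P450 genes fell in shade. Solyc01g008110.4 had 119 and 102 FPKM in shaded against 189 and 211 FPKM in unshaded roots at 12 h, and 76.2 and 123 against 187 and 196 FPKM at 24 h. Both shaded libraries were below both unshaded ones at these times (log2 differences -0.85 ± 0.22 and -0.98 ± 0.22 SE, limma adjusted p = 0.0184 and 0.00634). Solyc06g076800.3 had 74.3 and 66.2 FPKM in shaded against 149 and 129 FPKM in unshaded roots at 12 h. It was called lower there (log2 difference -0.98, limma adjusted p = 0.0239), whereas at 24 h its shaded libraries, with 235 and 135 FPKM, overlapped the unshaded ones, with 269 and 207 FPKM.

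The largest rises averaged over the times were those of Solyc04g071780.3 and Solyc10g083400.1, both weakly expressed in unshaded roots. Their averages were 1.17 each on the log2 scale and could not be ranked: with a pseudocount of 0.1 they were 1.43 and 1.48. Solyc04g071780.3 had 5.83 and 7.96 FPKM in shaded against 6.55 and 6.13 FPKM in unshaded roots at 3 h, and 10.8 and 8.59 against 5.82 and 2.64 FPKM at 6 h. At 12 h it had 2.78 and 3.33 against 1.77 and 2.72 FPKM, and at 24 h 22.8 and 14.9 against 1.78 and 0.71 FPKM. Only the 24 h difference passed the test, at 3.16 ± 0.33 (SE) on the log2 scale (limma adjusted p = 0.000557), the highest value of all 119 genes at any time. The SE of its average effect was 0.16 (limma adjusted p = 0.00046).

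Solyc10g083400.1 was the only P450 gene called higher at 6 h. It had 2.66 and 3.02 FPKM in shaded against 2.21 and 3.66 FPKM in unshaded roots at 3 h, where the groups overlapped. At 6 h it had 5.57 and 6.59 against 2.49 and 2.70 FPKM, at 12 h 8.48 and 7.98 against 1.80 and 1.38 FPKM, and at 24 h 7.11 and 7.74 against 1.18 and 1.45 FPKM. From 6 h on both shaded libraries stood above both unshaded ones. The log2 differences were 0.98 ± 0.18, 1.84 ± 0.18 and 1.87 ± 0.18 (SE; limma adjusted p = 0.0283, 0.000294 and 0.000497). The call at 6 h was lost when any of the 4 libraries of that time or either shaded 12 h library was left out, with differences of 0.87 to 1.08. It was also lost with a replicate block within time points (limma adjusted p = 0.0692) and with the 4 libraries of that time fitted alone (0.219). The call at 12 h held under every alternative run.

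Solyc06g074420.1 carries a description matched to the same database protein as Solyc10g083400.1. Its levels were 39.8 and 38.1 FPKM in shaded against 7.79 and 18.6 FPKM in unshaded roots at 12 h, and 18.6 and 20.9 against 11.5 and 7.11 FPKM at 24 h. The shaded libraries were higher at both times, by 1.60 ± 0.31 and 1.04 ± 0.31 (SE; limma adjusted p = 0.00528 and 0.0232). The unshaded libraries differed widely at 12 h, and without unshaded replicate 1 the difference there was 1.02 (adjusted p = 0.0176). The 12 h call was lost when the 4 libraries of that time were fitted alone (adjusted p = 0.0786).

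Among the more abundant rising genes, Solyc10g083690.3 had 38.8 and 57.2 FPKM in shaded against 44.5 and 55.0 FPKM in unshaded roots at 3 h. It had 63.3 and 63.1 against 32.5 and 23.8 FPKM at 12 h, and 104 and 69.5 against 22.4 and 19.1 FPKM at 24 h. The groups overlapped at 3 h and stood apart at 12 and 24 h, with log2 differences of 1.16 ± 0.25 and 1.99 ± 0.25 (SE; limma adjusted p = 0.00874 and 0.000898). In unshaded roots the level of this gene was lower at 24 h than at 3 h, but no P450 gene was called for a change with time in unshaded roots (limma moderated F-test; 18 had an unadjusted p under 0.05, beside 0.0637% of all genes called and 11.3% at the unadjusted p).

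Solyc04g054260.4 had 31.9 and 43.5 FPKM in shaded against 15.8 and 15.5 FPKM in unshaded roots at 12 h, and 49.4 and 42.2 against 14.9 and 15.0 FPKM at 24 h. All 4 unshaded groups of this gene lay between 13.5 and 17.3 FPKM, and its shaded libraries lay above the unshaded ones at every time. The log2 differences were 1.20 ± 0.16 and 1.55 ± 0.16 (SE; limma adjusted p = 0.000864 and 0.000543). Solyc12g088460.3 had 64.8 and 61.9 against 34.0 and 25.8 FPKM at 12 h, and 57.8 and 45.3 against 23.7 and 26.1 FPKM at 24 h. It was called higher at both times, by 1.07 and 1.01 (limma adjusted p = 0.0113 and 0.00909). Solyc08g080380.4 had 17.0 and 13.3 against 6.98 and 4.21 FPKM at 12 h, and 11.0 and 9.24 against 4.63 and 5.13 FPKM at 24 h, and was likewise called higher at both times (1.32 and 0.92 on the log2 scale, limma adjusted p = 0.00676 and 0.0214).

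**Figure D3:**
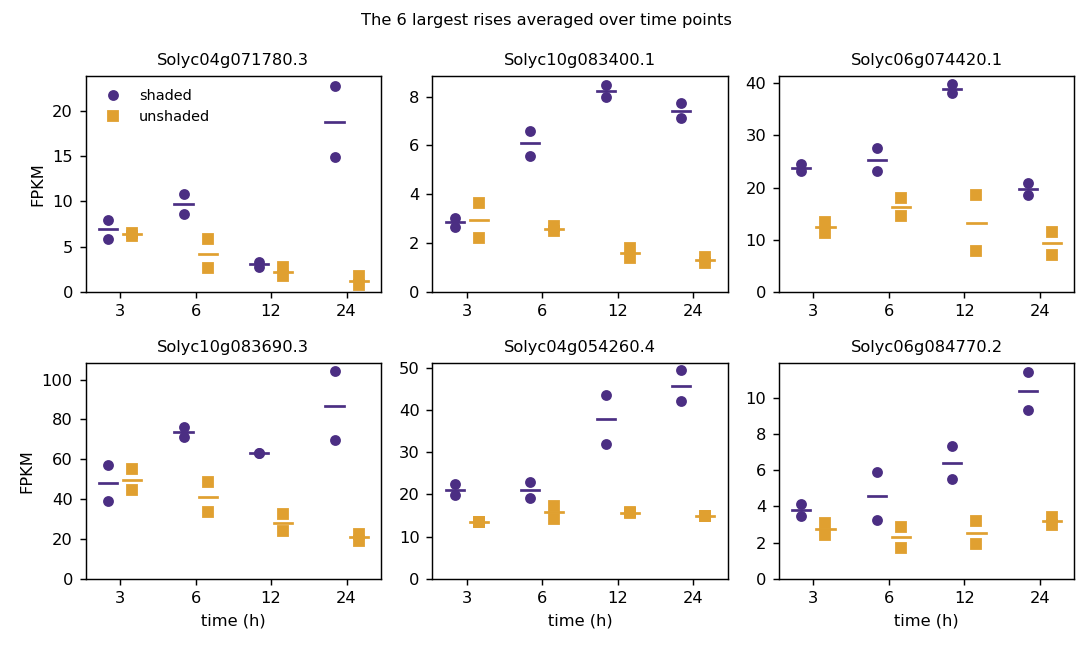
FPKM of the 6 P450 genes with the largest rises averaged over the times, by time in h; points are single libraries (shaded left, unshaded right at each time) and short lines are the means of 2 libraries. In Solyc10g083400.1 the shaded libraries reach 8.48 FPKM at 12 h while the unshaded ones stay at or under 3.66 FPKM at all times.

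At 12 h the third largest rise among genes whose libraries did not overlap was that of Solyc01g108210.4, with 4.48 and 7.88 FPKM in shaded against 2.39 and 1.13 FPKM in unshaded roots. The difference was 1.38 ± 0.37 (SE, limma adjusted p = 0.0232). The call was lost without shaded or without unshaded 12 h replicate 2, where the differences were 1.03 and 1.04. It was also lost with a replicate block within time points (limma adjusted p = 0.0783) and with the 4 libraries of that time fitted alone (0.0838). At 24 h Solyc09g008913.1 had 41.3 and 17.3 FPKM in shaded against 6.12 and 5.82 FPKM in unshaded roots. Its shaded libraries differed more than 2-fold from each other and still lay above both unshaded ones, by 2.0 ± 0.42 on the log2 scale (limma adjusted p = 0.00463). Over the 16 libraries, the genes whose log2(FPKM + 1) values were most like those of Solyc04g071780.3 were Solyc09g008913.1 (Pearson's r = 0.869) and Solyc10g083690.3 (r = 0.846); these libraries share their depth and their light and time groups.

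The largest fall averaged over the times was that of Solyc06g073570.4, which averaged -2.32 ± 0.25 on the log2 scale (SE; limma adjusted p = 9.93e-05). The gene had 3.59 and 4.95 FPKM in shaded against 20.1 and 10.6 FPKM in unshaded roots at 3 h, and 0.158 and 2.30 against 8.29 and 6.58 FPKM at 6 h. At 12 h it had 0.187 and 0.122 against 12.3 and 4.79 FPKM, and at 24 h 1.06 and 1.66 against 16.6 and 11.5 FPKM. The shaded libraries were the lower ones at all 4 times. The differences at 12 and 24 h passed the test (log2 differences -2.93 ± 0.50 and -2.67 ± 0.50 SE, limma adjusted p = 0.00295 at both), and the one at 12 h was -4.95 with a pseudocount of 0.1 in place of 1.

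Solyc10g081550.2 followed it closely, with Pearson's r of 0.977 over the 16 libraries. Its levels were 5.31 and 5.83 FPKM in shaded against 22.3 and 9.61 FPKM in unshaded roots at 3 h, 0.441 and 0.459 against 12.6 and 5.48 FPKM at 12 h, and 1.39 and 1.52 against 14.8 and 9.67 FPKM at 24 h. Again the shaded libraries were lower throughout, with log2 differences of -2.69 ± 0.43 at 12 h and -2.40 ± 0.43 at 24 h (SE; limma adjusted p = 0.00223 and 0.00256). The next most alike was Solyc10g039210.4 (r = 0.959), with 6.00 and 6.67 FPKM in shaded against 14.8 and 11.8 FPKM in unshaded roots at 24 h. It fell by 0.96 ± 0.30 there (limma adjusted p = 0.0286). The descriptions of these 3 genes cite the same database protein, and they may share reads, since how the authors' counting treated reads that fit several genes is not given in the sources used here.

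Solyc06g035760.4, among the 5 most abundant of the 119 genes, was the only one called lower at 6 h. It had 90.0 and 133 FPKM in shaded against 310 and 218 FPKM in unshaded roots at 3 h, and 52.3 and 74.1 against 203 and 143 FPKM at 6 h. At 12 h it had 38.8 and 40.3 against 196 and 131 FPKM, and at 24 h 146 and 106 against 291 and 268 FPKM. Shaded libraries were below unshaded ones at every time, with log2 differences of -1.24, -1.44, -1.99 and -1.16 (SE 0.28 each; limma adjusted p = 0.139, 0.0353, 0.00129 and 0.00963). The call at 6 h was lost when any 1 of the 4 libraries of that time, either shaded 12 h library or either unshaded 24 h library was left out. The 6 h differences in those fits ran from -1.69 to -1.18. This call was also lost without the filter on low values (limma adjusted p = 0.054), with a replicate block within time points (0.122) and with the 4 libraries of that time fitted alone (0.236). Its average effect was -1.46 ± 0.14 (adjusted p = 5.79e-05).

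Other falls were steepest at 24 h. Solyc07g043460.3 had 105 and 70.8 FPKM in shaded against 91.0 and 78.0 FPKM in unshaded roots at 3 h, 28.1 and 26.1 against 55.5 and 70.9 FPKM at 12 h, and 4.30 and 21.3 against 69.2 and 75.2 FPKM at 24 h. The groups overlapped at 3 h and stood apart at 12 and 24 h; only the last passed the test (log2 difference -2.75 ± 0.52 SE, limma adjusted p = 0.00307), and it was -1.71 without shaded 24 h replicate 1 (adjusted p = 0.0135). Fitted on the 4 libraries of that time alone, the 24 h difference missed the threshold (adjusted p = 0.0614). Solyc12g006460.2 had 3.35 and 9.80 FPKM in shaded against 27.9 and 29.8 FPKM in unshaded roots at 24 h (log2 difference -2.12 ± 0.38 SE, limma adjusted p = 0.00242).

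Solyc02g094860.3 had 0.942 and 0.832 FPKM in shaded against 5.45 and 6.96 FPKM in unshaded roots at 24 h, and Solyc02g085880.3 had 0.295 and 0.164 against 2.19 and 3.09 FPKM. Both were called lower at 12 h and at 24 h, with log2 differences at 24 h of -1.93 ± 0.26 and -1.56 ± 0.29 (SE; limma adjusted p = 0.00106 and 0.00275). The average effect of Solyc02g085880.3 was -0.96, and -1.82 with a pseudocount of 0.1. Solyc09g098620.2 had 3.24 and 1.62 FPKM in shaded against 8.20 and 7.73 FPKM in unshaded roots at 24 h and was called lower at 12 and 24 h (log2 differences -1.33 and -1.43, limma adjusted p = 0.00858 and 0.0039).

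**Figure D4:**
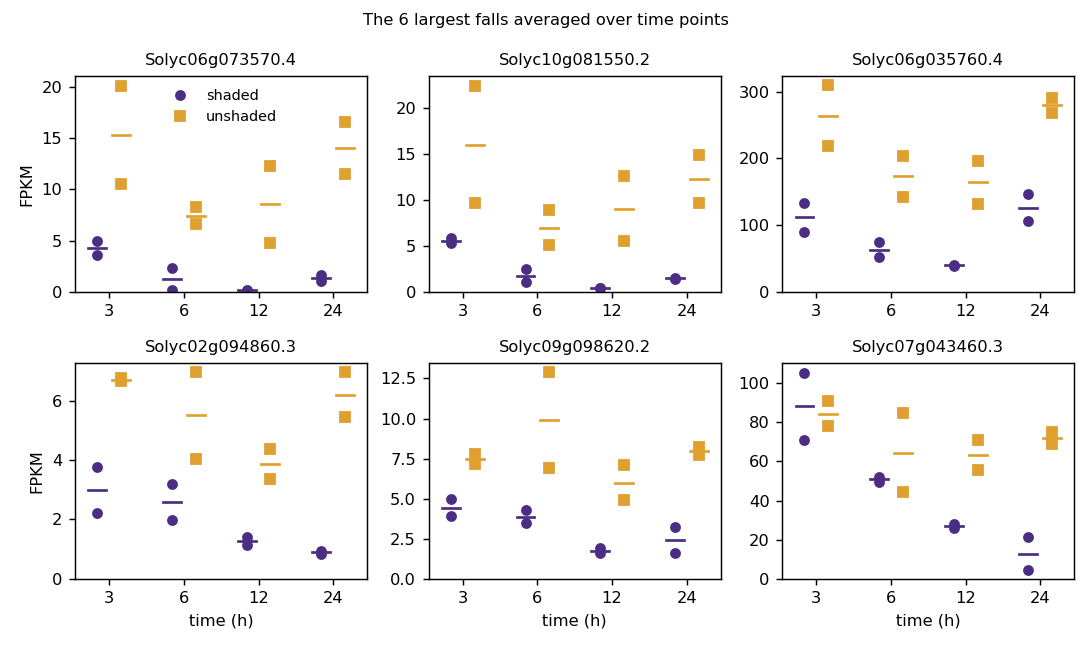
FPKM of the 6 P450 genes with the largest falls averaged over the times, by time in h; points are single libraries (shaded left, unshaded right at each time) and short lines are the means of 2 libraries. In Solyc06g035760.4 the shaded libraries lie between 38.8 and 146 FPKM and the unshaded ones between 131 and 310 FPKM, with the shaded below the unshaded at each time.

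The lowest log2 difference among the 119 genes was that of Solyc12g088970.1 at 12 h, with 0.0929 and 0.0469 FPKM in shaded against 10.5 and 13.1 FPKM in unshaded roots (log2 difference -3.57 ± 0.80 SE, limma adjusted p = 0.0104). This gene varied widely within groups: its unshaded libraries at 6 h had 21.5 and 2.96 FPKM, and its shaded libraries at 3 h 14.7 and 33.2 FPKM. It was also the only one of the 119 genes listed at 0 in a library, shaded 24 h replicate 2. The 12 h call was lost without either shaded library of that time (adjusted p = 0.0501 and 0.0615), and the value was -6.13 with a pseudocount of 0.1. It was not called in the average (adjusted p = 0.052).

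The shade effect at 12 and 24 h was then set against that at 3 and 6 h in the same fit. For 28 of the 119 genes this contrast passed the test, 16 with a higher and 12 with a lower effect late than early, against 20% of all genes (6.9% and 13.1%). At least 2-fold were 13, against 4.92% of all genes. The contrast's median over the P450 genes was 0.17, beside -0.02 over all tested genes. Leaving out single libraries moved the number of P450 genes called, as it did over all tested genes. The count was 10 without unshaded 3 h replicate 2 and 13 without shaded 3 h replicate 1. It was 14 without shaded 6 h replicate 2, shaded 12 h replicate 2 or unshaded 24 h replicate 2.

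A moderated F-test of the light by time interaction called 9 of the 119 genes, against 6.79% of all genes. As over all tested genes, these calls rested on the full set of libraries, and the P450 count moved when 1 library was left out. The count was 0 without shaded 3 h replicate 1, unshaded 3 h replicate 2 or unshaded 24 h replicate 2. It was 1 without unshaded 3 h replicate 1, shaded 6 h replicate 2 or shaded 12 h replicate 2, and 2 without unshaded 24 h replicate 1. It was 4 without shaded 6 h replicate 1 or shaded 24 h replicate 1, 5 without shaded 12 h replicate 1, 16 without unshaded 6 h replicate 2 and 20 without shaded 24 h replicate 2.

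Among the 5 genes with the lowest interaction p were Solyc10g083400.1 and Solyc04g071780.3, given above, and Solyc09g014900.3. The last had 8.22 and 8.37 FPKM in shaded against 10.9 and 11.0 FPKM in unshaded roots at 3 h, and 18.1 and 12.9 against 7.87 and 7.07 FPKM at 24 h. Its shaded libraries were the lower ones at 3 h and the higher ones at 24 h, and only the later difference passed the test (log2 differences -0.36 and 0.95, limma adjusted p = 0.51 and 0.0022). Solyc02g094110.1 went the other way, with 4.33 and 3.56 against 2.57 and 2.72 FPKM at 3 h and 0.234 and 0.945 against 3.15 and 2.87 FPKM at 24 h. It was called lower at 24 h (-1.37 ± 0.20 SE, limma adjusted p = 0.00132). Solyc08g079280.3 had 13.3 and 18.3 against 17.1 and 15.9 FPKM at 3 h, where the groups overlapped, and 29.3 and 28.7 against 13.1 and 12.9 FPKM at 12 h, a difference of 1.10 ± 0.15 (SE; limma adjusted p = 0.00116).

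Among the genes whose family is named, Solyc06g084770.2, described as CYP72A219, had 11.4 and 9.33 FPKM in shaded against 3.41 and 2.98 FPKM in unshaded roots at 24 h. It was called higher at 12 and 24 h, by 1.08 ± 0.27 and 1.43 ± 0.27 (SE; limma adjusted p = 0.0175 and 0.00319). Solyc03g111970.4, the most abundant of the 4 genes described as 71A6, had 35.9 and 27.0 FPKM in shaded against 16.3 and 15.3 FPKM in unshaded roots at 24 h. It too was called higher at 12 and 24 h (0.57 and 0.94 on the log2 scale, limma adjusted p = 0.0363 and 0.00285), whereas another gene of that description was called lower at 24 h, and 2 were called lower in the average.

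Solyc04g082380.4, described as 86A8-like, belongs by name to a family known in Arabidopsis for hydroxylating fatty acids of cutin and suberin. It had 12.1 and 11.3 FPKM in shaded against 16.6 and 18.6 FPKM in unshaded roots at 24 h. All shaded libraries at 12 and 24 h were below the unshaded ones, and both differences passed the test (log2 differences -0.62 and -0.55, SE 0.15 each, limma adjusted p = 0.0149 and 0.0159). Solyc07g056160.4 is described as CYP724B2, known in tomato to hydroxylate the side chain of brassinosteroid precursors. It had 4.96 and 5.35 FPKM in shaded against 7.08 and 6.30 FPKM in unshaded roots at 24 h and was called at no single time. Its average effect was -0.26 ± 0.09 (SE, limma adjusted p = 0.0359). That call was lost without the filter on low values (limma adjusted p = 0.0533) and with a replicate block within time points (0.0857). It was also lost in most fits that left out 1 library, where the effect ran from -0.31 to -0.21.

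Neither gene described as CYP74, of a family that converts fatty acid hydroperoxides to oxylipins, was called. Other oxylipin enzymes, described by their reaction, are among the genes given below as context. Of these, the hydroperoxide lyase Solyc07g049690.3 had 4.37 and 4.49 FPKM in shaded against 2.39 and 1.96 FPKM in unshaded roots at 24 h. It was called higher there (log2 difference 0.78, limma adjusted p = 0.0174). The divinyl ether synthase Solyc01g109140.3 and the allene oxide synthases Solyc04g079730.1 and Solyc11g069800.1 were called at no single time. Solyc01g109150.4, described as CYP74C4, had 25.7 and 11.0 FPKM in shaded against 5.75 and 6.43 FPKM in unshaded roots at 24 h. The groups stood apart there, but the difference of 1.33 ± 0.50 (SE) missed the threshold (limma adjusted p = 0.0577). Its average effect of 0.63 also missed it (adjusted p = 0.0683) and passed without unshaded 6 h replicate 1, unshaded 12 h replicate 1 or shaded 24 h replicate 2.

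The 3 NADPH-cytochrome P450 reductases, which pass electrons to the P450 enzymes, differed in direction and by small amounts. Solyc04g076380.4 had 169 and 176 FPKM in shaded against 134 and 140 FPKM in unshaded roots at 12 h, and 168 and 185 against 144 and 141 FPKM at 24 h. It was called higher at both times, by 0.33 ± 0.09 and 0.30 ± 0.09 on the log2 scale (SE; limma adjusted p = 0.0206 and 0.0188). Solyc07g019460.3 had 96.6 and 95.6 FPKM in shaded against 123 and 128 FPKM in unshaded roots at 12 h, and 114 and 117 against 143 and 141 FPKM at 24 h. It was called lower at both times (log2 differences -0.38 ± 0.09 and -0.30 ± 0.09 SE, limma adjusted p = 0.0149 and 0.0286). Solyc04g080340.3 had 33.1 and 41.2 against 40.5 and 43.4 FPKM at 24 h, where the groups overlapped, and was called at no time (average -0.11 ± 0.07 SE, limma adjusted p = 0.215). Without unshaded 12 h replicate 1 its average was -0.16 and passed the test (adjusted p = 0.0463). The calls of the first and second reductase in the average kept their direction and side of the threshold under both other scalings of the libraries.

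Genes whose descriptions cite the same database protein were then compared. There were 25 such groups holding 62 of the 119 genes. At 12 h 5 groups had at least 2 called genes, and in all 5 the called genes moved one way; at 24 h 11 groups had at least 2, of which 9 moved one way and 2 both ways. Genes of such a group can be near-identical copies that share reads, so they are not independent. No test was made of these counts, and no share was computed for such groups of other genes. Besides the group of 3 falling genes around Solyc06g073570.4, both genes of a group with Solyc07g043460.3 were called lower at 24 h. The other one, Solyc06g061027.1, had 0.104 and 0.898 FPKM in shaded against 4.98 and 5.03 FPKM in unshaded roots (log2 difference -2.05 ± 0.35 SE, limma adjusted p = 0.00209). Solyc02g094860.3 and Solyc02g085880.3 likewise made up 1 group.

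In the group of Solyc10g083690.3 and Solyc09g008913.1, 3 of 4 genes were called higher at 24 h. Solyc10g083700.4 had 15.3 and 15.5 FPKM in shaded against 10.1 and 8.03 FPKM in unshaded roots (0.71 ± 0.16 SE, limma adjusted p = 0.00739). The fourth, Solyc09g008910.2, had 2.32 and 1.09 against 3.60 and 2.94 FPKM and was not called (log2 difference -0.69, limma adjusted p = 0.088). In 1 of the mixed groups, Solyc10g009310.4 had 30.8 and 15.4 FPKM in shaded against 6.91 and 7.15 FPKM in unshaded roots at 24 h, a difference of 1.51 ± 0.32 (SE; limma adjusted p = 0.00544). The other gene of that group, Solyc05g047680.4, had 41.1 and 77.4 against 113 and 119 FPKM, a difference of -1.02 ± 0.23 (SE; limma adjusted p = 0.00597). In the other mixed group Solyc01g009370.2 had 52.5 and 43.4 against 13.6 and 13.6 FPKM and was called higher (1.74 ± 0.34 SE, limma adjusted p = 0.00379), while Solyc01g096670.4 had 62.7 and 56.2 against 85.8 and 74.5 FPKM and was called lower (log2 difference -0.42 ± 0.12 SE, limma adjusted p = 0.0175).

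**Figure D5:**
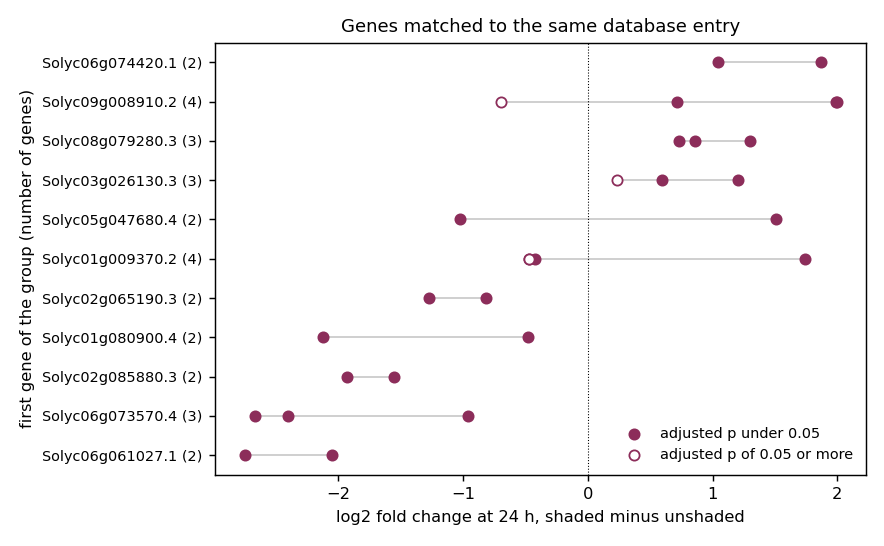
Difference of log2(FPKM + 1) at 24 h, shaded minus unshaded, for the genes of the 11 groups that share a database match and hold at least 2 called genes, 1 group a row, named by its lowest identifier with the number of genes; filled points passed the test. In 9 of the 11 groups the filled points lie on 1 side of 0. No share was computed for groups of other genes.

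The genes were also grouped by their place in the genome. Tomato identifiers carry the chromosome and run along it, and 47 of the 119 genes fell into 18 runs of identifiers no more than 100 numbers apart. At 24 h 5 runs had at least 2 called genes, and in 4 of them the called genes moved one way. Among these 4, the genes in each run from Solyc02g065190.3, Solyc08g079280.3 and Solyc10g083690.3 cite 1 database protein. They were therefore counted in the groups above as well and may share reads. No test was made of these counts, and no share was computed for runs of other genes. On chromosome 8 all 3 genes of the run from Solyc08g079280.3 to Solyc08g079315.1 were called higher, and so were all 3 of the run from Solyc08g080380.4 to Solyc08g080430.2. Within the first, Solyc08g079310.4 had 40.9 and 36.5 FPKM in shaded against 21.2 and 24.7 FPKM in unshaded roots (0.73 ± 0.23 SE, limma adjusted p = 0.0307), and Solyc08g079315.1 had 5.99 and 3.58 against 0.840 and 1.87 FPKM (1.30 ± 0.23 SE, adjusted p = 0.00251). Within the second, whose 3 genes cite different proteins, Solyc08g080390.3 had 9.02 and 6.56 against 2.66 and 2.91 FPKM (1.20 ± 0.24 SE, limma adjusted p = 0.0042) and Solyc08g080430.2 had 17.9 and 18.1 against 6.98 and 6.69 FPKM (1.28 ± 0.33 SE, adjusted p = 0.0133). In the 5 genes of the run from Solyc03g111885.1 to Solyc03g112040.1 on chromosome 3, 1 was called higher and 1 lower.

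Enzymes known to be P450s but described without the words cytochrome P450, and so outside the 119, gave context. Most were described by their reaction, others by a gene or family name, such as dwarf, CYP97A29 and CYP97C11. Of 25 such genes 17 were tested; 2 were called higher and none lower at 12 h, and 5 were called higher and 3 lower at 24 h. These were 11.8% and 47.1% of the tested genes, beside 23.9% and 37.3% of all genes, and their median log2 difference at 24 h was 0.31, beside -0.03. Solyc02g070580.1, a sterol 22-desaturase of the stigmasterol pathway, had 41.2 and 32.2 FPKM in shaded against 22.4 and 19.3 FPKM in unshaded roots at 24 h (log2 difference 0.78, limma adjusted p = 0.00343). Genes described as a geraniol 8-hydroxylase went both ways at 24 h. Solyc02g090300.3 had 0.897 and 2.72 against 8.55 and 7.89 FPKM (log2 difference -1.79, limma adjusted p = 0.00226). Solyc09g098030.4 had 16.7 and 11.3 against 8.43 and 7.27 FPKM (log2 difference 0.74, limma adjusted p = 0.0164). Solyc09g098610.2 and Solyc09g098770.2, of the same description, were not called there. The gene dwarf, which in tomato encodes an oxidase late in brassinosteroid synthesis, had 3.42 and 5.54 against 8.56 and 7.87 FPKM (log2 difference -0.78, limma adjusted p = 0.0117). Solyc03g120060.2, described as a castasterone 26-hydroxylase, was called lower at 24 h too (log2 difference -0.61, limma adjusted p = 0.0376). Solyc12g006860.2, described as a brassinosteroid hydroxylase, was not called (log2 difference 0.32, limma adjusted p = 0.169).

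Families of partner, oxidising and conjugating enzymes had calls in both directions as well, which are given as shares of their tested genes beside the 23.9% of all genes called at 12 h and 37.3% at 24 h. Of 26 tested genes described as cytochrome b5 or its reductase, none was called higher and 7 lower at 12 h, and 4 higher and 11 lower at 24 h, which were 26.9% and 57.7%, with median log2 differences of -0.30 at both times. Of 107 tested 2-oxoglutarate-dependent dioxygenases, which like P450s oxidise hormones and specialised metabolites, 13 were called higher and 14 lower at 12 h, and 25 higher and 11 lower at 24 h, or 25.2% and 33.6%, near the shares of all genes. Of 52 tested glutathione S-transferases, 8 were called higher and 5 lower at 12 h, and 12 higher and 6 lower at 24 h, or 25% and 34.6%, again near those shares. For 22 tested phenylpropanoid enzymes the counts were 3 higher and 4 lower at 12 h, and 8 higher and 7 lower at 24 h, or 31.8% and 68.2%. For 15 tested UDP-glycosyltransferases, which attach sugars to P450 products, they were 2 higher and 3 lower at 12 h, and 3 and 3 at 24 h, or 33.3% and 40.0%. The median log2 differences at 24 h were 0.18 for the dioxygenases, 0.06 for the glutathione S-transferases, 0.05 for the phenylpropanoid enzymes and -0.16 for the UDP-glycosyltransferases. Under each of the other 2 scalings 1 cytochrome b5 gene was also called higher at 12 h.

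The choice of genes ended at a mean of 1 FPKM. Just inside it lay Solyc08g079420.3, with a mean of 1.00 FPKM, and Solyc02g065230.3, with 1.02 FPKM; just outside lay Solyc10g150143.1, with 0.876 FPKM, and Solyc03g111997.1, with 0.804 FPKM. Of the 96 genes below the mean, 15 were listed at 0 in all libraries and 9 reached 1 FPKM in at least 1 library. A gene expressed in 1 group alone could fall below it, and 4 of the 96 genes had both libraries of a group at 1 FPKM or more. Among these, Solyc09g066150.2 had 1.25 and 1.54 FPKM in shaded against 0.182 and 0.0973 FPKM in unshaded roots at 12 h. No test was made of the 96 genes in the fit used here.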

How the data were processed

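Total RNA from tomato roots was sequenced by the submitters, 2 libraries in each of 8 groups. The authors deposited FPKM values per gene (fragments scaled by transcript length and by the total of mapped fragments). Per the submitters' processing notes, Cufflinks 2.1.1 was among the tools used, with no role stated; the aligner, the tomato genome build and the handling of reads shared between genes are not given in the sources used here. All 16 tomato columns were assigned by sample title. Arabidopsis values were not analysed here.

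Values were analysed as log2(FPKM + 1) without rescaling, for the 20413 tomato genes with a mean of at least 1 FPKM. The fit, by limma 3.58.1 under R 4.3.3, gave each group its own mean and all 16 libraries a shared spread (eBayes, trend), p-values were adjusted by Benjamini-Hochberg over all tested genes, and genes were called at an adjusted p-value under 0.05. Errors are limma's moderated SEs. With 2 libraries against 2, an exact two-sided permutation test of 1 gene cannot give a p under 0.333, so calls rest on the spread shared across genes. The P450 genes, the gene lists, the tests and the naming rule were chosen with earlier results of these data known.

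The genes named are the 8 largest rises and 8 largest falls among genes called in the average over times, the 3 largest of each at each time among called genes whose libraries did not overlap, the genes called at 6 h, the 5 most abundant, the 5 of lowest interaction p, the most abundant of each named family, the reductases, the genes at the threshold of 1 FPKM and the 2 genes most like the largest rise and the largest fall. Genes named inside groups of shared database matches and runs of identifiers, genes outside the 119 and the genes below the threshold were chosen after their values were seen. Lists were defined by words in the descriptions. Same-numbered libraries of shaded and unshaded roots did not deviate together (r between -0.004 and 0.094 at the 4 times), so replicate numbers were not used as pairs.

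The fit was tested on simulated data in which 200 genes were changed by 1 on the log2 scale. It recovered 57% to 61.5% of them at single times, 86.5% in the average and 26.5% in the interaction. False calls made up 3.15% to 8.46% of the calls at single times, 6.99% in the average and 3.64% in the interaction. Alternatives were a pseudocount of 0.1, no filter, median-of-ratios scaling, equal library sums, a fit per comparison, blocking on replicate number and omitting single libraries. Figures were drawn with matplotlib 3.10.9.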

Additional observations from a re-analysis of the deposited data

Results flagged for a closer look

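In 9 P450 genes the shade effect differed between the time points in limma's moderated F-test of the light by time interaction, adjusted by Benjamini-Hochberg over all tested genes, which called 6.79% of all genes. The count was 0 without shaded 3 h replicate 1, unshaded 3 h replicate 2 or unshaded 24 h replicate 2, and 0 with a replicate block within time points. The adjusted p was 0.0192 for Solyc10g083400.1, 0.0231 for Solyc04g071780.3, 0.0245 for Solyc09g014900.3 and 0.0245 for Solyc02g094110.1. It was 0.0288 for Solyc08g079280.3, 0.0342 for Solyc10g009310.4 and 0.0346 for Solyc04g054260.4. It was 0.0350 for Solyc10g083690.3 and 0.0383 for Solyc10g083700.4. At 24 h 8 of these genes were called higher in shade and 1, Solyc02g094110.1, lower. The interaction test uses the same 24 h values, so these calls are no separate result. No such split was computed for the other genes that the test called. Solyc10g009310.4 had 3.51 and 4.43 FPKM in shaded against 9.31 and 10.6 FPKM in unshaded roots at 3 h, with the shaded libraries the lower ones, and stood the other way round at 24 h. The 3 h difference of -1.14 did not pass the test (limma adjusted p = 0.236).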

How the results depend on the processing

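Of 81 comparisons of a count or median with an alternative that left out no library, 74 kept the result within the limits set. A count could change by a set factor, and a median by its spread over pairs of libraries. Medians could not change without the filter, with a replicate block or with only the groups compared, so those comparisons could not fail. With only the groups compared in the fit, 0 P450 genes were called at 6 h (24 at an unadjusted p under 0.05), 16 at 12 h and 33 at 24 h. At 6 h 1 gene was called with weakly expressed genes kept in, 4 with equal library sums and 0 with a replicate block within time points. That replicate block also left 0 P450 genes called in the interaction, and 1 of all tested genes. A replicate block across time points gave 33 P450 genes at 12 h, 56 at 24 h and 57 in the average. The replicate numbers share only a number. The cause of these differences was not tested.

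Leaving out each library in turn gave 0 to 0 called genes at 3 h, 0 to 3 at 6 h, 13 to 39 at 12 h, 30 to 58 at 24 h, 49 to 58 in the average, 10 to 34 late against early, 0 to 20 in the interaction and 0 to 3 for time in unshaded roots. Medians lay between -0.224 and -0.0645 at 3 h, -0.123 and -0.0113 at 6 h, -0.119 and -0.00769 at 12 h, and -0.0507 and 0.119 at 24 h. In these fits the lone library of a group is assumed to vary like the other groups. The counts over all tested genes moved in them as well. Under every alternative run, library by library included, 47 of the 58 average calls, 21 of 54 at 24 h and 7 of 38 at 12 h held, and none of these called genes changed sign. Of 308 gene results under alternatives that kept all libraries 16 lost their call, and of 784 with a library left out 68 did; an uncalled average passed the test in 4 results with a library left out, 3 for Solyc01g109150.4 and 1 for the reductase Solyc04g080340.3; 1 uncalled value reversed, the average of Solyc07g006890.1, which ran from -0.0539 without unshaded 12 h replicate 1 to 0.189 without replicate 2. Of the 49 gene results behind these comparisons, 44 were called in the main fit, and only these could lose a call. Low FPKM values rest on few reads of unknown number.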
